A study of Homo sapiens with 12 samples.

Results

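CLDN4, CLDN1, CLDN7, CLDN12, OCLN, TJP1 and F11R are 7 genes of the tight junction, the seal between neighbouring epithelial cells, and their RNA was followed in squamous carcinoma cells of the head and neck (HNSCC) given interferon alpha (IFNα). They were found by gene symbol among 60099 genes of the deposited table. CLDN4 was chosen on its response to IFNα at 200 ng/ml, which had differed between the 2 sets of samples, and the other 6 genes were named beside it, so that difference is given below as a description, with no test. The cells were Cal27 and HN30, established HNSCC lines, and all samples were collected after 24 h. Control samples received no IFNα, Low dose samples received 20 ng/ml and High dose samples 200 ng/ml. The sample letters form 2 line sets: set A-C has Control in A, Low dose in B and High dose in C, and set D-F has Control in D, Low dose in E and High dose in F. Each letter had 2 replicates, which gives 12 samples. Which set is Cal27 and which is HN30 is not stated in the labels, so the sets keep their letters. Nothing says that replicates came from separate cultures, so p-values measure the spread between these samples, which may be technical.

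Total RNA was depleted of ribosomal RNA and sequenced with strand-specific libraries, and the totals of estimated counts ran from 10517448 to 16056734 per sample. The 4 High dose samples held at most 11854183 and the 4 Control samples at least 12670755. The 2 sets separated clearly, with correlations of log expression between samples of 0.944 to 0.979 over 30 pairs within sets and 0.722 to 0.758 over 36 pairs between sets, across 13034 genes. All 10 interferon-stimulated genes examined rose at both doses, with the largest change in IFI44L, 7.04 on the log2 scale at 200 ng/ml. The squamous keratin KRT5 was at 914 to 1248 TPM in A-C and 237 to 263 TPM in D-F. The basal keratin KRT14 was at 41.9 to 49.2 TPM in A-C and at most 0.254 TPM in D-F. The other squamous markers were mixed. PERP was higher in D-F, at 144 to 189 TPM against 64.1 to 92.0 TPM in A-C. TP63 (109 to 137 against 237 to 452 TPM) and SFN (303 to 386 against 626 to 746 TPM) were lower. CDH1 (157 to 207 against 126 to 184 TPM) and DSG3 (18.0 to 23.3 against 15.5 to 21.4 TPM) overlapped. KRT6A overlapped too (47.5 to 181 against 167.6 to 472.5 TPM). Of the 8 markers of other cell types, CD3E was at 0 in all samples, and PTPRC, PECAM1 and DCN did not exceed 0.576 TPM. The fibroblast-associated COL1A1 was at 3.43 to 12.7 TPM in A-C and 7.57 to 13.0 TPM in D-F. COL1A2 was at 0.576 to 1.66 TPM in A-C and 0.302 to 1.73 TPM in D-F. CDH5, an endothelial cadherin, was at 15.2 to 21.7 TPM in A-C and at most 0.156 TPM in D-F. The macrophage-associated gene CD68 rose with treatment, by 1.77 on the log2 scale at 200 ng/ml. The 8 markers summed to 14.5 to 39.2 TPM in Control, 32.1 to 46.6 TPM in Low dose and 41.2 to 53.0 TPM in High dose samples, and their part in the results was not tested.

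Tight junctions are built from claudins, 4-pass membrane proteins that line up in strands and decide which ions pass between cells. Occludin (OCLN) joins the strands, junctional adhesion molecule A (F11R) lies beside them, and the scaffold ZO-1 (TJP1) ties the strands to the actin cytoskeleton. In stratified squamous epithelium CLDN1 is an essential barrier claudin, CLDN4 is typical of the upper living layers, and carcinomas often show altered levels of both. Short DNA elements known from interferon-responsive genes are the interferon-stimulated response element (ISRE) and the gamma-activated site (GAS).

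CLDN4 (ENSG00000189143, chromosome 7, 73799542 to 73832693, plus strand, GRCh38) encodes claudin-4. Its level is given as CPM, the estimated count expressed relative to the sample's library total after TMM scaling. In set A-C it was at 67.3 and 86.1 CPM in Control, 62.6 and 74.5 CPM in Low dose, and 2.70 and 41.6 CPM in High dose samples. In set D-F it was at 15.4 and 12.3 CPM in Control, 2.36 and 6.99 CPM in Low dose, and 268.5 and 354 CPM in High dose samples. Both C samples lay below both A samples, whereas both F samples lay above every other sample of the series. The order of the group means, from low to high, was E, D, C, B, A and F. D and C overlapped, as did B and A, and the other neighbours in that order did not.

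**Figure D1:**
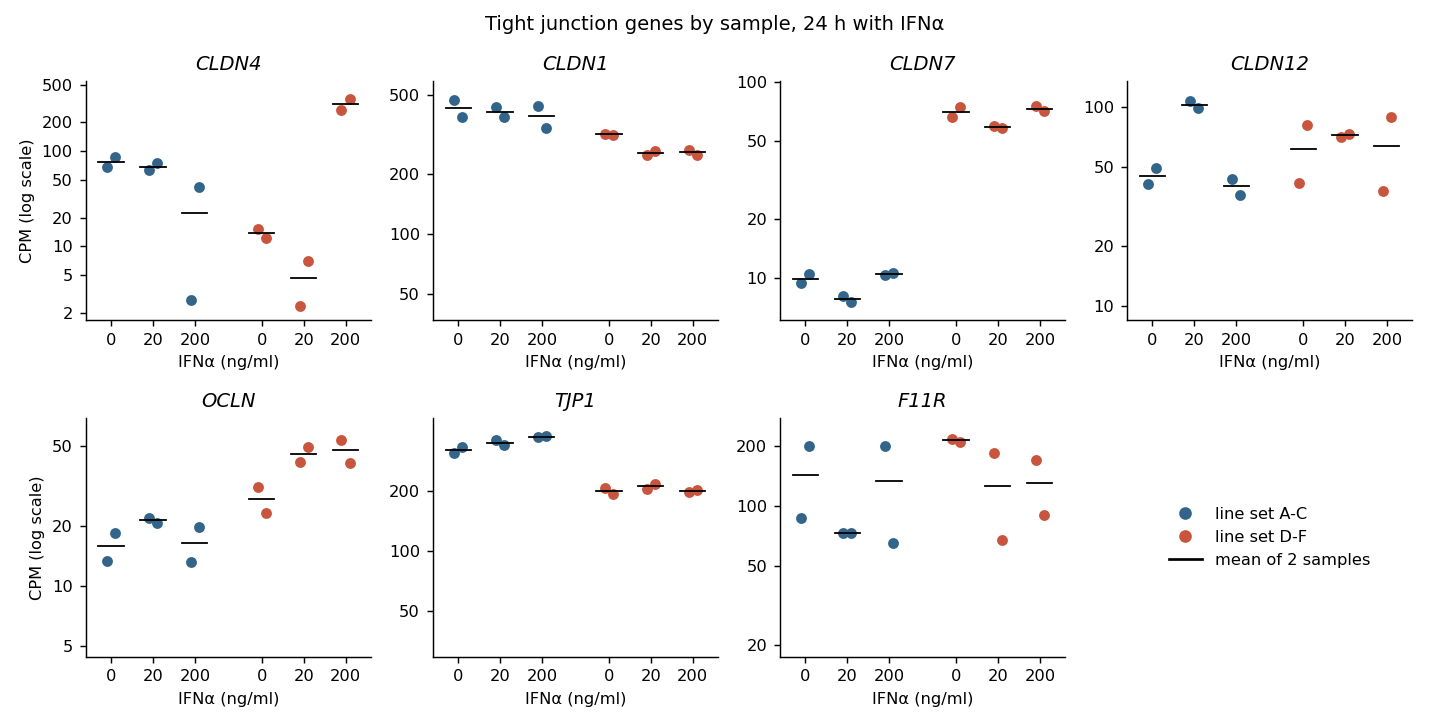
CPM of the 7 genes in each of the 12 samples (vertical axes, log scale) against the IFNα dose in ng/ml, set A-C in blue and set D-F in red, with a line at the mean of 2 samples. CLDN4 runs from 2.36 to 354 CPM and its 2 samples at 200 ng/ml in A-C lie far apart, whereas replicate points of TJP1 and CLDN7 nearly coincide.

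Within the sets, the fitted log2 change of CLDN4 at 200 ng/ml was -1.81 (SE 0.80) in A-C and 4.49 (SE 0.88) in D-F, a 3.50-fold lower and a 22.5-fold higher level. The difference between these responses was 6.30 (SE 1.18) on the log2 scale. At 20 ng/ml the changes were -0.16 (SE 0.76) in A-C and -1.55 (SE 0.91) in D-F, with a difference of -1.39 (SE 1.19). The Control level was lower in D than in A, by -2.47 (SE 0.82) on the log2 scale. These values involve the contrast that selected CLDN4 and carry no test. As background for them, 1.88% of the 19944 genes tested passed an adjusted p of 0.05 for a difference in response at 200 ng/ml and 0.371% at 20 ng/ml. One library moves the first value: the difference at 200 ng/ml was 5.38 without the first C sample and 9.32 without the second.

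The other 6 genes had far smaller differences in response at 200 ng/ml than CLDN4, which was chosen for that difference. They ran from -0.60 (SE 0.84) for F11R to 0.76 (SE 0.35) for OCLN on the log2 scale. CLDN1, CLDN7 and TJP1, whose replicates were closest, gave -0.16 (SE 0.18), -0.018 (SE 0.16) and -0.23 (SE 0.10). Computed from log2(TPM + 0.1), CLDN7 moved to 0.38 and TJP1 to -0.059, so these values depended on the unit. The difference of CLDN7 at 20 ng/ml was 0.092 (SE 0.16), and 0.44 from log2(TPM + 0.1). CLDN12 gave 0.22 (SE 0.53). Leaving out single libraries turned the sign of these values for F11R, CLDN1, CLDN7 and CLDN12. F11R ran from -1.32 to 0.43, the latter without the first C sample, and CLDN1 reached 0.032 without that sample. CLDN12 was at -0.54 without the second F sample and 0.79 without the second D sample. At 20 ng/ml CLDN12 gave -0.96 (SE 0.53), from a change of 1.18 (SE 0.38) in A-C and 0.23 (SE 0.37) in D-F. That value was -0.39 without the second D sample and -0.33 from log2(TPM + 0.1). The value of OCLN at 200 ng/ml turned to -0.076 when computed from log2(TPM + 0.1), as described below.

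**Figure D2:**
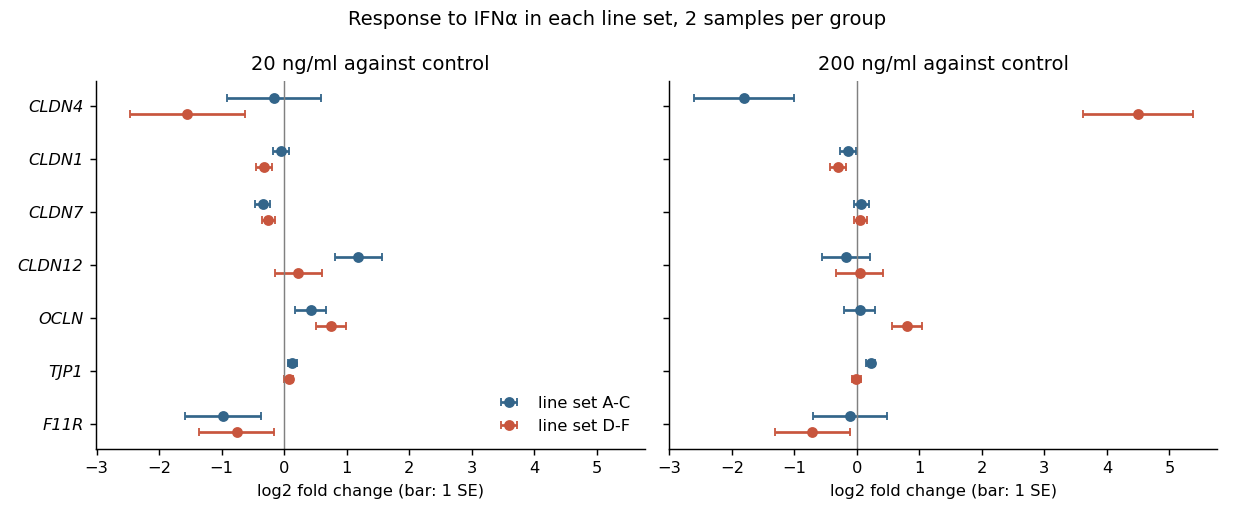
Log2 fold change of each gene against the Control samples of the same set (horizontal axes, bars of 1 SE from the edgeR fit, 2 samples per group), at 20 ng/ml on the left and 200 ng/ml on the right. CLDN4 at 200 ng/ml lies at -1.81 in A-C and 4.49 in D-F, and the other 6 genes stay within 1.2 of 0 at both doses.

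Averaged over the 2 sets, none of the 7 genes passed the test at 200 ng/ml, at 20 ng/ml or between the doses. Among all 19944 genes tested, 9.55% passed at 200 ng/ml, 3.93% at 20 ng/ml and 0.135% between 200 and 20 ng/ml (edgeR quasi-likelihood test, Benjamini-Hochberg adjusted p of at most 0.05). At an unadjusted p under 0.05, 3 of the 7 were called in each comparison by edgeR, where 23.9% of all genes were at 200 ng/ml, 16.8% at 20 ng/ml and 9.26% between the doses. These were CLDN1, CLDN4 and OCLN at 200 ng/ml, CLDN7, CLDN12 and OCLN at 20 ng/ml, and CLDN4, CLDN7 and CLDN12 between the doses. DESeq2 called 1 of the 7 after adjustment at 20 ng/ml, OCLN with an adjusted p of 0.0279, and 0 at 200 ng/ml and between the doses. It called 5.76% of all genes at 20 ng/ml, 11.3% at 200 ng/ml and 0.837% between the doses. CLDN4 is included in these counts although its response at 200 ng/ml selected it, so nothing is read from its part in them. Both treatment comparisons share the Control samples.

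The averaged change of CLDN4 at 200 ng/ml was 1.34 (SE 0.56), which combines the opposite values of the sets and is a description, since those values selected the gene. Without the first C sample it was 1.80 and without the second -0.17. Between 200 and 20 ng/ml the averaged difference was 2.20 (SE 0.60), and 2.66 without the first C sample.

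CLDN1 (ENSG00000163347, chromosome 3, 190305701 to 190322475, minus strand) had the highest median of the 7 in each set in TPM, the unit scaled for transcript length, although CLDN4 exceeded it in the second F sample. It had 161 to 232 TPM in A-C and 142 to 181 TPM in D-F. In A-C it was at 474 and 386 CPM in Control, 437 and 388 CPM in Low dose, and 438 and 343 CPM in High dose samples, which overlapped. In D-F it was at 320 and 317 CPM in Control, 249.96 and 260.4 CPM in Low dose, and 266 and 250.6 CPM in High dose samples. All 4 treated D-F samples were below both controls. The averaged change was -0.22 (SE 0.09, edgeR adjusted p = 0.176) at 200 ng/ml and -0.19 (SE 0.09, adjusted p = 0.337) at 20 ng/ml. The first of these passed only when the first C sample was left out, with -0.32 and an adjusted p of 0.0461.

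CLDN7 (ENSG00000181885, chromosome 17, 7259903 to 7263983, minus strand), a claudin of the lateral membrane that binds EPCAM, was the gene that most separated the sets. In A-C it was at 9.34 and 10.4 CPM in Control, 8.04 and 7.48 CPM in Low dose, and 10.26 and 10.52 CPM in High dose samples. In D-F it was at 66.0 and 74.7 CPM in Control, 59.8 and 58.0 CPM in Low dose, and 75.1 and 71.0 CPM in High dose samples. In both sets the 2 Low dose samples lay below both controls and the High dose samples overlapped them. The averaged change at 20 ng/ml was -0.30 (SE 0.08, edgeR adjusted p = 0.0769) and at 200 ng/ml 0.064 (SE 0.08, adjusted p = 0.702). Its counts could be mixed with those of AC003688.1, which overlaps it on the same strand, holds 9.20% of its 31-base words and had 0 to 6 counts per sample. ELP5 overlaps CLDN7 on the opposite strand, with 183 to 468 counts, and the strand setting used in counting is not given.

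CLDN12 (ENSG00000157224, chromosome 7, 90383721 to 90513402, plus strand), a claudin without the PDZ-binding tail by which other claudins bind ZO-1, stood out at the low dose in A-C. There it was at 106 and 98.1 CPM, against 41.0 and 48.9 CPM in Control and 43.4 and 36.2 CPM in High dose samples. In D-F the replicates disagreed, with 41.4 and 81.1 CPM in Control, 70.5 and 72.8 CPM in Low dose, and 37.8 and 88.7 CPM in High dose samples. The averaged change at 20 ng/ml was 0.70 (SE 0.26, edgeR adjusted p = 0.210) and at 200 ng/ml -0.065 (SE 0.27, adjusted p = 0.949). GTPBP10 and CDK14 overlap CLDN12 on the same strand, with 348 to 671 and 315 to 1018 counts, so its counts are uncertain.

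OCLN (ENSG00000197822, chromosome 5, 69492292 to 69558104, plus strand) had 13.3 and 18.4 CPM in Control, 22.0 and 20.5 CPM in Low dose, and 13.1 and 19.7 CPM in High dose samples of A-C. In D-F it had 31.3 and 23.2 CPM in Control, 41.9 and 49.7 CPM in Low dose, and 54.0 and 41.4 CPM in High dose samples. Low dose samples lay above the controls in both sets, and High dose samples did so in D-F. The averaged change was 0.59 (SE 0.17, edgeR adjusted p = 0.108) at 20 ng/ml and 0.43 (SE 0.17, adjusted p = 0.169) at 200 ng/ml. The values depended on the unit: with counts rebuilt from TPM the same changes were -0.011 and -0.084. The pseudogene OCLNP1 carries 8.65% of the 31-base words of OCLN, so its counts are uncertain.

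TJP1 (ENSG00000104067, chromosome 15, 29699367 to 29968865, minus strand) had the tightest replicates. In A-C it was at 309 and 332 CPM in Control, 361 and 339.6 CPM in Low dose, and 372 and 376 CPM in High dose samples, all treated samples above both controls. In D-F it was at 208 and 194 CPM in Control, 206 and 216 CPM in Low dose, and 197 and 203 CPM in High dose samples, which overlapped. The averaged change at 200 ng/ml was 0.11 (SE 0.05, edgeR adjusted p = 0.242) and at 20 ng/ml 0.10 (SE 0.05, adjusted p = 0.377).

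F11R (ENSG00000158769, chromosome 1, 160995211 to 161021348, minus strand) varied widely between replicates. In A-C it was at 87.4 and 199.8 CPM in Control, 73.2 and 72.8 CPM in Low dose, and 200.8 and 65.1 CPM in High dose samples. In D-F it was at 217 and 209 CPM in Control, 184 and 67.3 CPM in Low dose, and 169.7 and 90.1 CPM in High dose samples. The Low dose samples lay below the controls in both sets, and the High dose samples did so in D-F. The averaged change was -0.87 (SE 0.43, edgeR adjusted p = 0.345) at 20 ng/ml and -0.41 (SE 0.42, adjusted p = 0.623) at 200 ng/ml. A readthrough gene on the same strand, AL591806.3, holds 35.4% of its 31-base words and had 1 to 55 counts, so its counts are uncertain. Counted over the 7 genes, CLDN7, OCLN and F11R had Low dose samples on one side of the controls in both sets, 3 of 7 where 14.2% of all genes did. Of these, 1 was higher and 2 were lower, where 6.48% and 7.76% of all genes were. At 200 ng/ml this held for 0 of 7, where 16.9% of all genes did. CLDN4 is in that count although its differing response at 200 ng/ml selected it, so nothing is read from its part.

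The spread between replicates differed among the genes by a wide margin. The 2 CLDN4 samples of C differed by 15.3-fold in CPM, a largest replicate ratio above that of 99.4% of 13034 genes with a mean count of at least 50. The largest ratio was 3.11-fold for F11R, 2.35-fold for CLDN12, 1.49-fold for OCLN, 1.29-fold for CLDN1, 1.13-fold for CLDN7 and 1.07-fold for TJP1, while the median gene had 1.33-fold. The fitted biological coefficient of variation followed the same order, from 0.580 for CLDN4, higher than in 95.0% of the genes tested, to 0.0772 for TJP1. No replicate pair looked like repeated deposits of one library, since the counts of each pair differed beyond sampling noise, with a chi-square of 11.7 to 16.4 per degree of freedom.

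The transcript that held most of the TPM differed between samples for CLDN4, CLDN7, CLDN12 and OCLN. GENCODE lists 5 CLDN4 transcripts, and all 5 had the positions used in the deposited table. ENST00000340958 is a single exon of 1831 bases and ENST00000431918 has 2 exons and 4108 bases, and both carry the same coding length of 627 bases. ENST00000340958 held nearly all CLDN4 TPM in 6 samples (A1, A2, B1, B2, C1 and F2), with 58.7, 72.5, 53.3, 64.6, 2.12 and 345 TPM. In C2 it was at 0.08 TPM while ENST00000431918 was at 15.9 TPM, and in F1 these were at 5.39 and 115 TPM. The share of ENST00000340958 thus ran from 0.396% to 100% of the gene, with a mean of 55.1%. In D2 and E1 the leading transcript was ENST00000466411, a non-coding transcript of 593 bases, with 8.76 and 1.51 TPM. Of the 1801 31-base words of ENST00000340958, 99.5% also occur in another CLDN4 transcript, so few words are its own. ENST00000431918 has 4078 words, so part of its sequence is absent from ENST00000340958, and reads from that part can tell them apart. How CLDN4 reads were assigned in each sample cannot be seen from the counts, among them the 30 counts of the first C sample, so its counts are uncertain. At the gene level, 2.73% of CLDN4 words occur in any other gene, and CLDN3, which stayed at or below 0.711 TPM, holds 0.869% of them.

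Because these transcripts differ in length, CPM and TPM of CLDN4 are not proportional. The F samples were at 128 and 350.3 TPM where their CPM were 268.5 and 354. In TPM the first C sample was at 2.23 and the second at 16.0, against 58.7 and 72.8 in Control. The same was seen in OCLN, whose coding length of 1566 bases is shared by ENST00000396442, of 1748 bases, and ENST00000355237, of 6438 bases. The share of the shorter one ran from 38.3% to 95.5% of OCLN TPM. CLDN12 switched between ENST00000287916 and ENST00000394605, each leading in 6 samples. In the 2 F samples ENST00000287916 was at 0.96 and 36.7 TPM. CLDN7 was led by ENST00000360325 in 10 samples and by ENST00000397317 in 2. In contrast, 1 transcript led in all 12 samples for CLDN1 (ENST00000295522), TJP1 (ENST00000614355) and F11R (ENST00000368026). The spread of F11R was seen with the same leading transcript throughout.

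**Figure D3:**
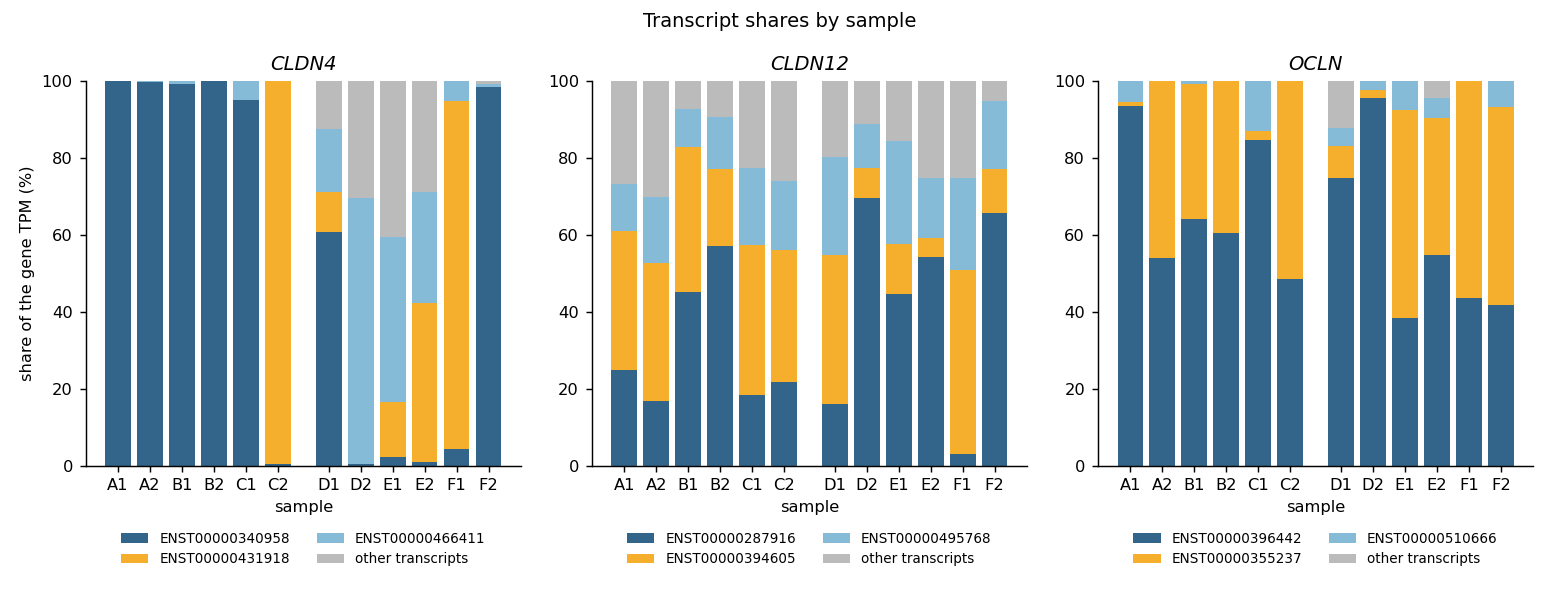
Share of the gene's TPM (vertical axis, percent) held by the 3 transcripts with the highest mean TPM and by all others, for CLDN4, CLDN12 and OCLN in the 12 samples (horizontal axis, letter and replicate). In CLDN4 the blue single-exon transcript ENST00000340958 ranges from 0.396% to 100% and its share differs between the replicates of C and of F.

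Levels per length were ordered differently in the sets. In A-C the medians over 6 samples rose from OCLN (9.53 TPM) through CLDN7 (11.8), F11R (28.8), CLDN12 (31.5), CLDN4 (56.2) and TJP1 (103) to CLDN1 (197). TJP1 and CLDN1 did not overlap with any neighbour, and the ranges of CLDN12, F11R and CLDN4 overlapped. In D-F the order was CLDN4 (12.6 TPM), OCLN (21.6), CLDN12 (50.6), TJP1 (71.8), F11R (72.1), CLDN7 (88.7) and CLDN1 (147). OCLN and CLDN12 did not overlap there, and neither did CLDN7 and CLDN1.

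Averaged over doses, 4 of the 7 genes differed between D-F and A-C, where 64.8% of all genes did (33.7% higher and 31.1% lower). CLDN7 was higher in D-F by 2.86 (SE 0.07, edgeR adjusted p = 1.33e-09), or 7.24-fold, and OCLN by 1.14 (SE 0.14, adjusted p = 6.1e-05), or 2.21-fold. TJP1 was lower by 1.71-fold (log2 difference -0.77, SE 0.04, adjusted p = 1.9e-07) and CLDN1 by 1.49-fold (log2 difference -0.57, SE 0.07, adjusted p = 8.5e-05). These 4 calls held in each of 18 refits, and CLDN7 and OCLN alone also exceeded a 2-fold change. CLDN12 (0.20, SE 0.22, adjusted p = 0.437) and F11R (0.44, SE 0.35, adjusted p = 0.292) did not pass. For CLDN4 the difference is a description, as it includes the C and F samples: -0.84 (SE 0.47), with -1.14 without the first C sample and 0.17 without the second. The line and the set cannot be told apart here, and in bulk RNA fewer cells of a kind and less RNA per cell cannot be told apart.

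The other 20 claudins were sparse. Only CLDN9, CLDN11, CLDN15, CLDN16, CLDN22 and CLDN23 passed the filter on low counts, and 0 of these 6 passed the test at either dose or between the doses, with log2 changes of -0.64 to 1.13 at 200 ng/ml. Between the sets 4 of 6 passed, where 64.8% of all genes did. CLDN9 and CLDN15 were higher in D-F by 1.91 (SE 0.30) and 1.38 (SE 0.25), with edgeR adjusted p of 0.000283 and 0.000698. CLDN23 was lower by -1.32 (SE 0.18, adjusted p = 0.000104). CLDN22 was lower by -4.36 (SE 0.59, adjusted p = 0.000109), from 0.838 to 2.31 TPM in A-C against at most 0.195 TPM in D-F. CLDN16 (-0.81, SE 0.34, adjusted p = 0.0602) and CLDN11 (-3.35, SE 1.43, adjusted p = 0.0680) did not pass. CLDN16 passed with the replicate block (adjusted p = 0.0491) and without A1 (0.00695) or B1 (0.0342), and CLDN11 without A2 (0.0380) or B2 (0.0381). CLDN15 was the most abundant of the 6, at 2.29 to 6.60 TPM in A-C and 11.8 to 15.9 TPM in D-F, below the D-F level of CLDN7.

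The other genes of the junction were tested for IFNα in the same fit, where 9.55% of all genes passed at 200 ng/ml and 3.93% at 20 ng/ml. Of 8 other membrane proteins tested, such as the tricellular proteins MARVELD2 and ILDR1, 0 passed at either dose or between doses. Of 25 scaffold and polarity proteins, 3 passed at each dose and 0 between the doses. AMOTL2, an angiomotin that binds YAP, rose at both, by 0.30 (SE 0.07, edgeR adjusted p = 0.0256) at 200 ng/ml and 0.30 (SE 0.07, adjusted p = 0.0484) at 20 ng/ml. TJP3, which encodes ZO-3, fell by 0.82 (SE 0.21, edgeR adjusted p = 0.0394) and PARD6G, a polarity protein, by 0.45 (SE 0.11, adjusted p = 0.0379) on the log2 scale at 200 ng/ml. The change of TJP3 was -1.29 (SE 0.35) in A-C, where its level was low, and -0.35 (SE 0.24) in D-F. YBX3, which binds ZO-1, fell by 0.36 (SE 0.08, adjusted p = 0.0480) and the scaffold MPDZ by 0.28 (SE 0.06, adjusted p = 0.0428) at 20 ng/ml. Each of these calls was lost in 9 to 15 of 18 refits. The median over the 25 was -0.022 at 200 ng/ml and -0.028 at 20 ng/ml, where that over all genes was -0.012 and -0.011.

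One partner gene did respond. ST14, the membrane protease matriptase, which is known to act on EPCAM and claudin-7, was at 118 and 129 CPM in Control, 148 and 163 CPM in Low dose, and 133 and 139 CPM in High dose samples of A-C. In D-F it was at 314 and 308 CPM in Control, 444 and 422 CPM in Low dose, and 453 and 464 CPM in High dose samples. Every treated sample lay above the controls of its set. ST14 rose by 0.35 (SE 0.05, edgeR adjusted p = 0.00384) at 200 ng/ml and 0.41 (SE 0.05, adjusted p = 0.00259) at 20 ng/ml, and both calls held in 18 of 18 refits, though both are under 2-fold. It was the single one of 8 claudin partners and proteases that passed, where 9.55% of all genes passed at 200 ng/ml and 3.93% at 20 ng/ml. Of 12 epithelial transcription factors, TP63 alone passed, with a rise of 0.41 (SE 0.08, adjusted p = 0.00876) at 200 ng/ml and 0 of 12 passed at 20 ng/ml. TP63 was at 232 and 278 CPM in A and 448 and 525 CPM in C, but at 120 and 110 CPM in D and 106 and 109 CPM in F: both C samples lay above both A samples, and both F samples lay below both D samples.

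Between the sets, most listed genes differed, as 64.8% of all genes did. Of the scaffold and polarity proteins 11 of 25 were higher in D-F and 13 lower. AMOT was higher by 4.84 (SE 0.33), TJP3 by 4.27 (SE 0.18) and CGNL1, which encodes paracingulin, by 3.48 (SE 0.29), while MAGI2 (-3.21, SE 0.82) and MAGI3 (-1.36, SE 0.09) were lower. TJP3 was at most 3.42 CPM in A-C and at least 22.2 CPM in D-F. Of the other membrane proteins ILDR1 was higher by 1.95 (SE 0.31), and MARVELD2 (-0.43, SE 0.10) and CXADR (-0.48, SE 0.07) were lower. ILDR2 was at 0 in all D-F samples and at 2.52 to 4.71 CPM in A-C, at least 15.0-fold lower in D-F against 3 counts per library. Among partners WNK4, ST14, CD9 and SPINT1 were higher, by 1.67, 1.52, 1.42 and 0.63, and EPHA2 was lower (-0.65). Of the transcription factors 9 of 12 were higher in D-F, led by ELF3 (2.26, SE 0.06), GRHL3 (1.99, SE 0.24), OVOL1 (1.49, SE 0.13) and GRHL1 (1.07, SE 0.13), and TP63 was lower (-1.61, SE 0.06).

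**Figure D4:**
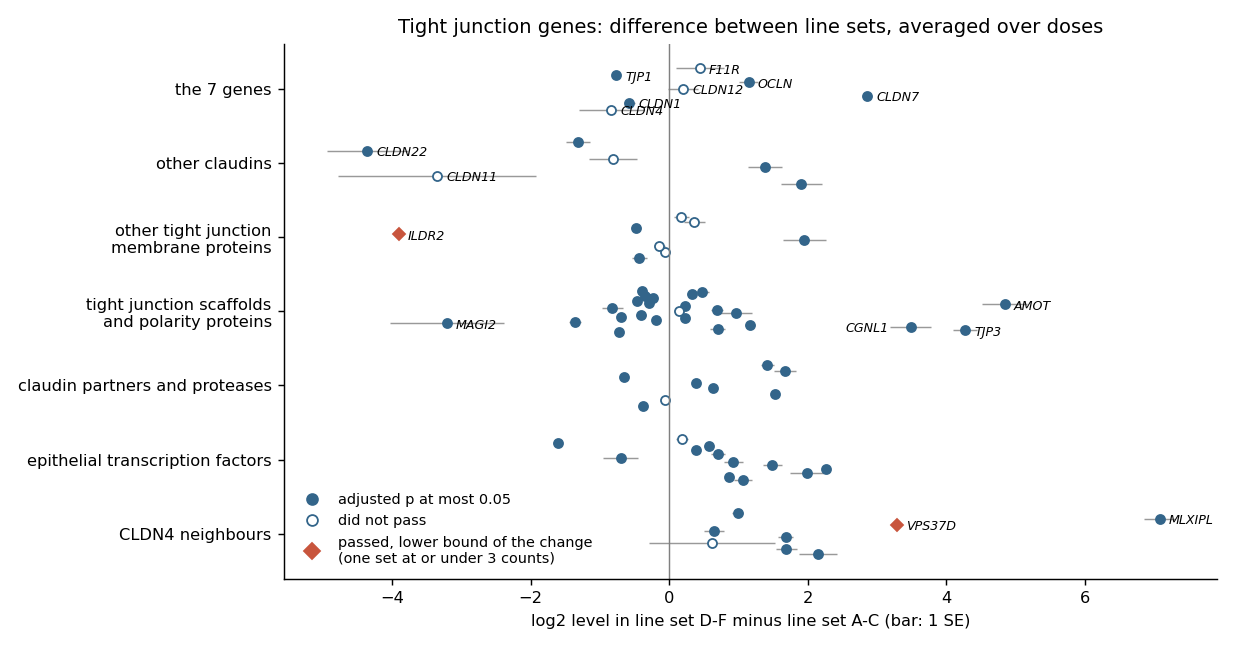
Difference of the log2 level in D-F minus A-C, averaged over doses (horizontal axis, bars of 1 SE), for every tested gene of 7 lists (rows). Filled points passed, open points did not, and diamonds are lower bounds where one set had at most 3 counts in each library. CLDN7 at 2.86 lies farthest to the right among the 7 genes, while CLDN4 at -0.84 is open.

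The genes next to CLDN4 on chromosome 7 were compared with it. Of its listed neighbours 8 passed the filter, and 0 of these 8 passed the test as higher at either dose. Few genes did so anywhere: of all 19944 genes, 993 passed as higher at 200 ng/ml and 465 at 20 ng/ml. METTL27, ABHD11, WBSCR28, STX1A, DNAJC30, VPS37D and LIMK1 had averaged log2 changes of -0.31 to 0.19 at 200 ng/ml, and CLDN3 did not pass the filter. MLXIPL passed as lower at 200 ng/ml (edgeR adjusted p = 0.00259). It had 0 to 6 counts in A-C, and in D-F it was at 13.0 and 10.9 CPM in Control and 7.31 and 7.99 CPM in High dose samples. Between the sets 7 of 8 neighbours were higher in D-F, where 33.7% of all genes were. Among them were METTL27 by 2.15 (SE 0.27), ABHD11 by 1.69 (SE 0.15), STX1A by 1.68 (SE 0.11), LIMK1 by 0.99 (SE 0.08), DNAJC30 by 0.65 (SE 0.14) and MLXIPL by 7.08 (SE 0.22). VPS37D had 0 counts in A-C, and its D-F level was higher by at least 9.73-fold. WBSCR28 (0.62, SE 0.91) did not pass.

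The 5 genes whose pattern was most like that of CLDN4, after centring log2 CPM within each set, were PATZ1 (Pearson r = 0.935), FER1L4 (0.934), PCDH1 (0.930), ALG5 (0.913) and PRCC (0.896) over the 12 samples among 13033 genes. These correlations share libraries and scaling and are a description. PCDH1, a protocadherin, was at 109 and 130 CPM in D and 196 and 189 CPM in F, and at 43.1 and 61.6 CPM in A and 26.8 and 47.9 CPM in C. PATZ1 moved far less, from 37.0 and 38.4 CPM in D to 44.1 and 45.6 CPM in F. Among the tight junction genes, r with CLDN4 was 0.39 for OCLN, 0.20 for CLDN7, 0.044 for CLDN12, -0.19 for CLDN1, -0.31 for F11R and -0.43 for TJP1.

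Promoter sequence was searched for the letters of these elements and of 2 others, in windows from 250 bases before to 50 bases after RefSeq starts on GRCh38.p14. RefSeq held 11 windows for 6 of the 7 genes. ISRE letters, a pair of GAAA runs with 2 bases of any kind between them, occurred on either strand in 3.57% of 35116 windows, GAS letters (TTCNNNGAA) in 7.66%, the GC box (GGGCGG) in 45.0% and a grainyhead site (AACCGGTT) in 0.134%. The CLDN4 window held the GC box alone. That window lies beyond the starts of ENST00000431918 (chr7:73828174) and ENST00000466411 (chr7:73799542), so sequence before those starts was not searched. ENST00000431918 led in C2, E2 and F1, and ENST00000466411 led in D2 and E1. The single interferon-type matches lay in 1 CLDN7 and in the CLDN12 window. These 3 sites are shown because they are all the ISRE and GAS matches of the 11 windows and the 1 match of CLDN4, with the match in capitals, 10 bases on each side and the gene's strand:
CLDN4 GC box, reverse complement, chr7:73830939-73830964, plus strand: ccctctgcccCCGCCCctctgccaga
CLDN12 GAS letters, chr7:90403356-90403384, plus strand: gcccagtggaTTCTGGGAAttgtagtccc
CLDN7 ISRE letters, chr17:7263333-7263362, minus strand: gcccgggaggGAAAGAGAAAcgggcgagtg

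The CLDN4 match begins 47 bases before the RefSeq start and lies in non-coding exon sequence of 3 GENCODE transcripts, ENST00000340958, ENST00000431918 and ENST00000435050. The CLDN12 match begins 95 bases before its start, in an exon of ENST00000496677, and the CLDN7 match begins 139 bases before its start, in an intron. Neither CLDN7 nor CLDN12 passed the test at either dose. A match describes letters in these windows and no binding was measured.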

How the data were processed

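RNA of 12 samples was sequenced by the authors on an Illumina HiSeq instrument. The submitters' processing notes name Trimmomatic 0.36, HISAT2 2.1.0, StringTie 1.3.3b and GRCh38.p10, and the strand setting used in counting is not given in the sources used here. The authors deposited estimated counts per gene and transcript, in whole numbers. TPM and FPKM were also deposited, both scaled by the authors for depth and length. FPKM was not used for any result.

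Estimated counts were fitted with edgeR 4.0.16 in R 4.3.3 (filterByExpr, TMM, quasi-likelihood test) as 6 groups of 2 samples, with Benjamini-Hochberg adjustment over all 19944 genes tested. Contrasts were averaged over the line sets, and the SE is the log2 change divided by the square root of F. The script was tested on simulated data. DESeq2 1.42.0, other scalings and filters, a replicate block and fits without each sample were alternatives. Counts rebuilt from TPM were added after seeing the data. The other lists held 8 to 27 genes, and 4 listed symbols had no row in the table. The text names all 7 genes, the claudins and CLDN4 neighbours that passed the filter, up to 5 passing genes with the largest changes in each of the other tight junction lists (claudins, membrane proteins, scaffolds, partners, transcription factors), the interferon-stimulated genes as a count with the extremes, and the 5 genes most like CLDN4. One value that the rule for named genes asks for is not reported here. These genes, lists and rules were chosen with earlier results of these data known. Transcripts came from GENCODE release 29, whose positions equalled the deposited ones for all 7 genes, and promoters from RefSeq. Tables and figures used Python 3.11.15. A floor of 3 counts equals 0.187 to 0.285 CPM before TMM scaling, and covers counting error only.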

Additional observations from a re-analysis of the deposited data

Results flagged for a closer look

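CLDN4 at 200 ng/ml moved in opposite directions in the 2 line sets: both High dose samples of A-C were below both controls, and both High dose samples of D-F were above both controls. The response in D-F minus that in A-C was 6.30 on the log2 scale (SE 1.18). The low end in A-C includes a sample with 30 CLDN4 counts, whose read assignment cannot be seen from the counts. This difference was not tested, because it is the one that selected the gene.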

How the results depend on the processing

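Across alternatives, the 4 line set calls among the 7 genes (CLDN7, OCLN, TJP1, CLDN1) held in all 18 refits, and 2 of the 4 (CLDN7, OCLN) also reached a 2-fold change. With that 2-fold threshold the genes passing fell from 1905 to 426 at 200 ng/ml, from 784 to 229 at 20 ng/ml, from 27 to 9 between doses and from 12923 to 6184 between sets. Counts rebuilt from TPM gave 1003, 389 and 5 in the first 3 comparisons, and reversed OCLN (-0.084 at 200 ng/ml, -0.011 at 20 ng/ml, -0.18 for its difference in response at 200 ng/ml, which was -0.076 on the log2(TPM + 0.1) scale) and CLDN7 at 200 ng/ml (-0.0079). With those counts the difference in response of CLDN7 moved to 0.29 at 200 ng/ml and 0.39 at 20 ng/ml. DESeq2 called 1 of the 7 at 20 ng/ml (OCLN) and 167 genes between doses. TJP1 between doses turned to -0.018 with library size alone and -0.0081 without the filter. The cause was not tested. Replicate numbers did not pair the samples (correlations of deviations from -0.0453 to 0.0560), and a replicate block left 0, 0, 0 and 4 of the 7 genes passing, with 1484 and 584 genes at 200 and 20 ng/ml, 0 between doses (27 without the block) and 12713 between sets.

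Leaving out 1 sample at a time gave 0 to 2 of the 7 genes passing at 200 ng/ml, 0 to 0 at 20 ng/ml, 0 to 1 between doses and 4 to 5 between sets. Genes passing ran from 1106 to 1962, 478 to 849, 9 to 122 and 12542 to 13001. The difference in response of CLDN4 ran from 5.38 to 9.32. The calls added without the first C sample were CLDN4, which the choice of the gene leaves without a test, and CLDN1 at 200 ng/ml, and 122 genes passed between doses without it. Signs turned for CLDN4 at 200 ng/ml (-0.17 to 1.80) and between sets (-1.17 to 0.17), CLDN12 at 200 ng/ml (-0.44 to 0.21) and between sets (-0.064 to 0.37), and between doses for CLDN1 (-0.13 to 0.051), TJP1 (-0.023 to 0.028) and F11R (-0.063 to 0.90). Differences in response turned for F11R (-1.32 to 0.43 at 200 ng/ml, -0.72 to 0.77 at 20 ng/ml), CLDN12 (-0.54 to 0.79 at 200 ng/ml), CLDN1 (-0.33 to 0.032 at 200 ng/ml) and CLDN7 (-0.12 to 0.077 at 200 ng/ml, -0.024 to 0.19 at 20 ng/ml). A lone sample left in a group is assumed to vary like the other groups. Groups of 2 samples limit every value, CLDN4 and F11R most.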
